A study of Mus musculus with 24 samples.

Results

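The IL-6 family cytokines and the colony-stimulating factors were followed here through 8 genes, Il6, Lif, Osm, Il11, Csf1, Csf2, Csf3 and Socs3, chosen by their symbols in the expression table. All 8 were among the 18723 genes measured by bulk RNA-seq. The 24 tumours grew from Lewis Lung Cancer cells, a mouse lung adenocarcinoma line, in wild-type mice, with 8 tumours per group. Triple tumours came from mice given all 3 agents, anti-C5aR1 added to poly I:C and anti-PD-1. Dual tumours came from mice given poly I:C and anti-PD-1, and vehicle tumours from mice given vehicle. Per the labels' protocols, anti-PD-1 was given at 100 µg into the peritoneum on days 7, 10 and 14, and poly I:C at 50 µg into the tumour on days 11 and 15. PMX53, taken here as the C5aR1 blocker of the triple group, was given at 1 mg/kg under the skin every day, starting on day 6. Poly I:C is a synthetic double-stranded RNA that engages nucleic acid sensors, PD-1 is an inhibitory receptor of T cells, and C5aR1 is the receptor for the complement fragment C5a. Neither strain nor age of the mice is given in the sources used here.

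The IL-6 family cytokines (Il6, Lif, Osm and Il11 here) bind a ligand-specific receptor chain and signal through the shared chain gp130, encoded by Il6st, which activates JAK kinases and the transcription factor STAT3. Socs3 is a STAT3 target whose product binds gp130 and the G-CSF receptor and shuts their signal off. The colony-stimulating factors carry their names from the blood cells they raise in culture: Csf1 (M-CSF) acts on macrophages through Csf1r, Csf2 (GM-CSF) on granulocytes, macrophages and dendritic cells through Csf2ra and Csf2rb, and Csf3 (G-CSF) on neutrophils through Csf3r.

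Reads assigned to genes ran from 15671388 to 19254090 per triple tumour, 14535983 to 19046105 per dual tumour and 14438318 to 17225195 per vehicle tumour. Triple, dual and vehicle tumours carry library numbers from separate, unbroken runs, and treatment and library order therefore cannot be told apart. Of 10 lung adenocarcinoma markers, 7 were measured, with summed levels of 0.00403% to 0.00654% of reads in triple, 0.00320% to 0.00557% in dual and 0.00422% to 0.00746% in vehicle tumours. The lung lineage markers Nkx2-1, Sftpc and Sftpb were not in the table used here, and Epcam had 0 reads in 8 of 24 tumours. Reads per tumour were 80 to 891 for Napsa, 78 to 940 for Krt18 and 9 to 114 for Cdh1. They were 2 to 141 for Krt19, 1 to 65 for Krt8 and 2 to 21 for Krt7. Marker shares of some other cells, though not of all, differed between the groups. The 9 measured neutrophil markers summed to 0.0214% to 0.160% of reads in triple and 0.0429% to 0.0938% in dual tumours, against 0.00720% to 0.0116% in vehicle tumours, and none was at 0 in every tumour of a group. The 10 skeletal muscle markers summed to 0.0174% to 0.201% in triple, 0.0174% to 0.0716% in dual and 0.0103% to 0.0424% in vehicle tumours. In 5 triple tumours (T_352_S48, T_353_S45, T_354_S47, T_355_S43 and T_362_S42) the muscle share was above that of every dual and vehicle tumour. Calls on the 8 genes and their pathway that were lost without these 5, which leaves 3 triple tumours, are given beside each result. Between triple and dual tumours, 25 genes of the pathway lists and of the genes most like the 8 were called with all tumours. None of the 25 was called without the 5, and none with a skeletal muscle score as a covariate over all 24 tumours. Between triple and vehicle tumours 62 genes of the same lists were called. Of these, 39 kept the call without the 5 and 33 with the covariate. Over all genes, the 2140 called higher and 1867 lower in triple than in dual tumours became 2 and 0 without the 5, and 6 and 2 with the covariate. The muscle score was highest in those 5 triple tumours. With the covariate the standard error of Il6 in triple minus vehicle went from 0.451 to 0.573. The fit without the 5 rests on 3 triple tumours. A call lost in either fit therefore does not show that a difference was absent. In a bulk tumour, fewer cells of a type and less RNA per cell cannot be told apart.

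Levels were compared between genes as CPM (reads scaled to the depth of each library) per kilobase of exon. Csf1 and Socs3 stood far above the other 6 genes in every group. The median of Csf1 was 65.8 CPM per kilobase in triple, 90.5 in dual and 39.97 in vehicle tumours. For Socs3 the medians were 61.7 CPM per kilobase in triple, 66.1 in dual and 39.7 in vehicle tumours, with ranges that overlapped those of Csf1 in each group. Osm, the macrophage- and neutrophil-derived member oncostatin M, was next in treated tumours, at a median of 5.84 CPM per kilobase in triple and 9.64 in dual tumours, against 1.33 in vehicle tumours. Il6 had the lowest median level per kilobase in each group, 0.973 in triple, 2.38 in dual and 0.612 in vehicle tumours. Il11, Lif, Csf3 and Csf2 lay between, and among these 6 genes neighbours in the order of levels overlapped in their ranges within each group.

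RefSeq promoters of the GRCm38.p6 build were matched by symbol for 6 of the 8 genes. Osm and Csf3 had no entry. Each promoter spans 250 bases before to 50 bases after an annotated start, and Il11 had a pair of such starts. The 4 shown hold matches to motifs of factors that act on cytokine genes, and the capitals mark those matches: the NF-kappaB, AP-1 and C/EBP motifs for Il6, AP-1 for Lif, NF-kappaB for Csf1 and STAT for Socs3.
Il6 (chr5:30012864-30013163, + strand): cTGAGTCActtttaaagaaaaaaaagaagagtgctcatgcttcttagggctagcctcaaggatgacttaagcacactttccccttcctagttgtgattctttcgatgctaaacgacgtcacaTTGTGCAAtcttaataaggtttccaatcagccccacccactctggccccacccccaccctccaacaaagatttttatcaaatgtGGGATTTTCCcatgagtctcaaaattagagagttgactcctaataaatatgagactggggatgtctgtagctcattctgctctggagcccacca
Lif (chr11:4257318-4257617, + strand): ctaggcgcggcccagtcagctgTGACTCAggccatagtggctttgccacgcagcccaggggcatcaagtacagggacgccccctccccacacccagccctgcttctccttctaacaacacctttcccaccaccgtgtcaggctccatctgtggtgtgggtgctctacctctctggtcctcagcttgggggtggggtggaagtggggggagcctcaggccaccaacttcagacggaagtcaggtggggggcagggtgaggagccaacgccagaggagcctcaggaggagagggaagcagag
Csf1 (chr3:107760420-107760719, - strand): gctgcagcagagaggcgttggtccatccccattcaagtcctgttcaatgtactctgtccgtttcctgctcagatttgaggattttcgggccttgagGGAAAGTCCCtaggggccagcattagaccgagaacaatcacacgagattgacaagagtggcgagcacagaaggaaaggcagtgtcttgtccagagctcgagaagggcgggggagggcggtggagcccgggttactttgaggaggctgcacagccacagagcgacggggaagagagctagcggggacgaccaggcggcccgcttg
Socs3 (chr11:117969317-117969616, - strand): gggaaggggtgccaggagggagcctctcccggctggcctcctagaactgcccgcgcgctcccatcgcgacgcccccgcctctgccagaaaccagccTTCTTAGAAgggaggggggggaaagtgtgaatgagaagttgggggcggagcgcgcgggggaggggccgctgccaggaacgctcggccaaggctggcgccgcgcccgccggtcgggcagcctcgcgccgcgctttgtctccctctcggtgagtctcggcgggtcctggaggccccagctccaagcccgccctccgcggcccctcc

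Motifs were searched on both strands. The NF-kappaB motif, GGGNN followed directly by TTTCC, was found in Il6 from 44 to 35 bases upstream of the start and, on the reverse strand, in Csf1 from 154 to 145 bases upstream. It was present in 1.63% of the 32851 promoters of the table. The AP-1 motif TGANTCA was found 249 bases upstream of the start in Il6, 228 in Lif and 98 in the Il11 start nearer to the gene's end, and in 7.81% of all promoters. The STAT motif TTCNNNGAA was found 154 bases upstream in Socs3 and in 8.30% of all promoters. The C/EBP motif TTNNGNAA was found in Il6 and, on the reverse strand, in Csf2, and in 40.7% of all promoters. None of the 7 promoters held TATAAA, which 13.6% of all promoters held. No listed match overlapped another. These are matches of letters, not measured binding.

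All 8 genes were higher in dual tumours than in vehicle tumours (limma, Benjamini-Hochberg adjusted p under 0.05 over all 18723 genes). Over all genes, 15.0% were called higher and 15.8% lower in that comparison. The median log2 fold change of the 8 genes was 1.37, beside -0.03 over all genes tested. In triple tumours 5 of the 8 genes (Lif, Osm, Il11, Csf1 and Socs3) were higher than in vehicle tumours, where 23.0% of all genes were called higher and 22.8% lower. Il6, Csf2 and Csf3 did not pass that test. The median log2 fold change of all 8 genes there was 0.71, beside -0.02 over all genes. Between triple and dual tumours 1 gene, Csf1, passed, as lower in triple tumours, where 11.4% of all genes were called higher and 9.97% lower. Both treated groups were set against the same vehicle tumours, so the comparisons with vehicle share their controls. The 8 genes were chosen with earlier results of these data known, so these counts are a description.

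**Figure D1:**
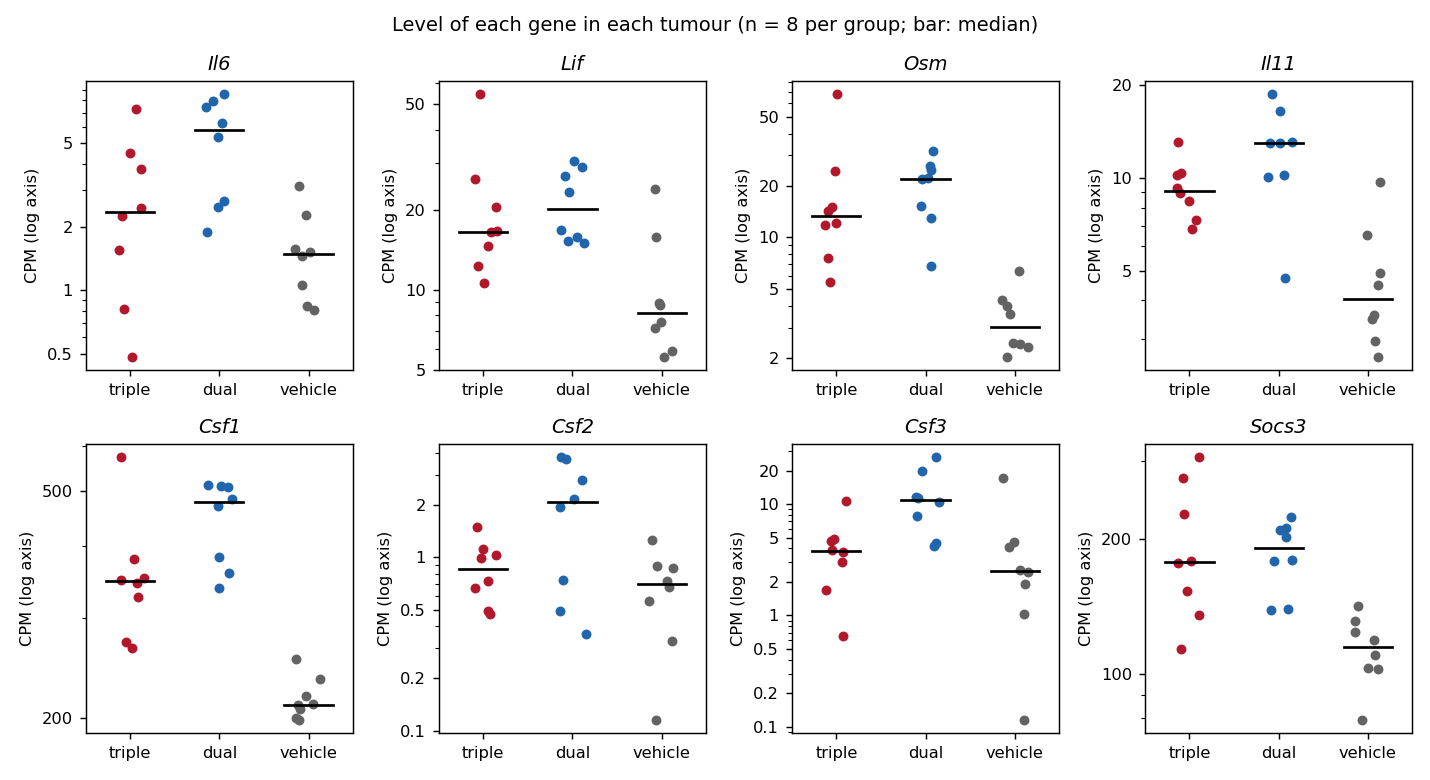
CPM on a log axis for each of the 8 genes, 1 point per tumour, with triple, dual and vehicle tumours from left to right and a bar at the median of each 8. The vehicle points of Csf1 lie below every treated point, while those of Csf2 and Csf3 overlap the triple points over most of their range.

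Il6, the founding cytokine of the family (GRCm39 chromosome 5, 30218112 to 30224979), ran from 0.482 to 7.32 CPM with a median of 2.36 in triple tumours, from 1.89 to 8.56 with a median of 5.78 in dual tumours, and from 0.809 to 3.13 with a median of 1.49 in vehicle tumours. Every dual tumour lay above the vehicle median, and 5 of 8 lay above the highest vehicle tumour. The triple tumours spread the widest, 15.2-fold between T_331_S44 and T_352_S48, and reached from below the vehicle range into the upper dual range. Il6 rose in dual against vehicle tumours by 1.67 ± 0.45 on the log2 scale (SE; limma adjusted p = 0.00668). The difference between triple and vehicle tumours was 0.56, with a 95% interval of -0.37 to 1.49 (limma adjusted p = 0.319). It became -0.040 without the 5 muscle-rich triple tumours. Triple minus dual was -1.11 with an interval of -2.03 to -0.18 (limma adjusted p = 0.0769), and 7 of 8 triple tumours lay below the dual median. Without the 5 muscle-rich tumours it was -1.71 (limma adjusted p = 0.405). It passed in 1 of 24 fits with a tumour left out, that without T_352_S48 (limma adjusted p = 0.0390).

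Lif, a cytokine that signals through Lifr and gp130 (chromosome 11, 4207557 to 4222514), had 10.6 to 54.5 CPM in triple tumours, median 16.6, 15.0 to 30.7 in dual tumours, median 20.1, and 5.57 to 23.9 in vehicle tumours, median 8.18. All treated tumours lay above the vehicle median, and the vehicle tumour C_375_S31 reached into the treated range. The log2 fold change was 1.16 ± 0.30 for dual against vehicle (SE; limma adjusted p = 0.00482) and 1.02 ± 0.30 for triple against vehicle tumours (SE; limma adjusted p = 0.00806). The call in triple against vehicle tumours was lost when the muscle-rich tumours were left out, at a log2 fold change of 0.67 with an adjusted p of 0.155 by limma. Triple minus dual was -0.15, with an interval of -0.77 to 0.47.

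Osm encodes oncostatin M and lies beside Lif on chromosome 11 (4186420 to 4191026), with 16530 bases between the 2 genes. It showed the highest fold change of the 8 genes against vehicle in each treated group. Its level was 5.48 to 67.8 CPM in triple tumours, median 13.3, 6.84 to 31.9 in dual tumours, median 21.9, and 2.02 to 6.40 in vehicle tumours, median 3.01. Dual and vehicle tumours did not overlap, as was true in the higher direction for 5.81% of all genes, and 7 of 8 triple tumours lay above every vehicle tumour. Osm rose by 2.51 ± 0.38 on the log2 scale for dual against vehicle (SE; limma adjusted p = 3.1e-05) and 2.18 ± 0.38 for triple against vehicle tumours (SE; limma adjusted p = 8.1e-05). Triple minus dual was -0.33, with an interval of -1.11 to 0.46.

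Osm was set against the neutrophil marker share within each group. In triple tumours Pearson's r between the share and the log2 level of Osm was 0.89 and Spearman's rho 0.81 (exact permutation p = 0.00196 and 0.0218, adjusted over 72 marker relations 0.141 and 0.503). In dual tumours r was 0.32 and rho 0.33 (exact permutation p = 0.452 and 0.428), and in vehicle tumours r was 0.83 and rho 0.79 (exact permutation p = 0.0183 and 0.0279). Without the 2 tumours farthest from the median r was 0.57 in triple, 0.64 in dual and 0.84 in vehicle tumours. None of the 72 relations of the 8 genes to neutrophil, macrophage and muscle shares passed adjustment. The part of these shares in the fold changes was not tested.

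**Figure D2:**
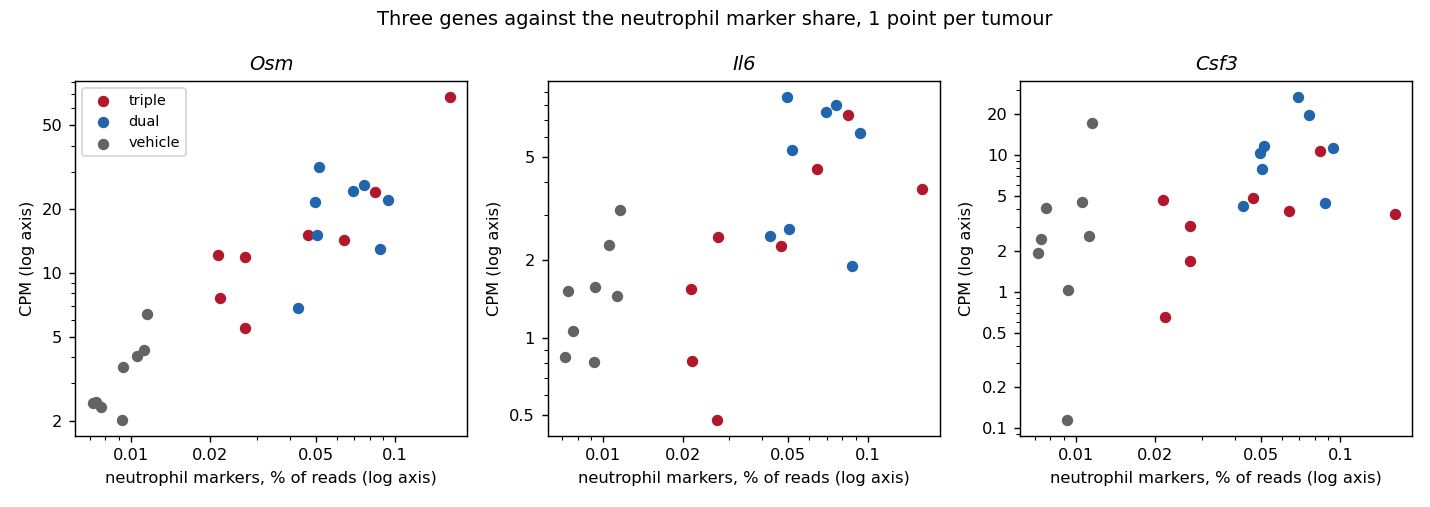
CPM of Osm, Il6 and Csf3 against the share of reads on neutrophil markers, both on log axes, 1 point per tumour with triple in red, dual in blue and vehicle in grey. Vehicle tumours sit at 0.00720% to 0.0116% and every treated tumour lies above that range, from 0.0214% up.

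Il11, a cytokine that signals through Il11ra1 and gp130 (chromosome 7, 4775372 to 4785858), had 6.83 to 13.1 CPM in triple tumours, median 9.08, 4.74 to 18.7 in dual tumours, median 13.0, and 2.62 to 9.67 in vehicle tumours, median 4.04. Each treated tumour lay above the vehicle median, and 7 of 8 dual tumours lay above the highest vehicle tumour. The exception was D_370_S38, the lowest dual tumour. Il11 rose by 1.40 ± 0.25 on the log2 scale in dual tumours (SE; limma adjusted p = 0.000162) and by 1.05 ± 0.25 in triple tumours (SE; limma adjusted p = 0.00149), each against vehicle. Triple minus dual was -0.35, with an interval of -0.86 to 0.17.

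Csf1, the growth and survival factor of macrophages (chromosome 3, 107648364 to 107667785), had the narrowest range of the 8 genes in dual and in vehicle tumours, and was the only 1 of them that separated both treated groups from vehicle. Its level was 265 to 574 CPM in triple tumours, median 347, 338 to 512 in dual tumours, median 478, and 199 to 254 in vehicle tumours, median 211. No treated tumour fell into the vehicle range. For triple against vehicle tumours 4.00% of all genes separated in this way. The log2 fold change was 1.03 ± 0.12 for dual (SE; limma adjusted p = 2.1e-06) and 0.69 ± 0.12 for triple tumours (SE; limma adjusted p = 9.8e-05), each against vehicle. Csf1 was lower in triple than in dual tumours by a log2 fold change of -0.34, with an interval of -0.59 to -0.09 (limma adjusted p = 0.0498). T_355_S43, the highest of all 24 tumours, went against that direction. When 1 tumour at a time was left out the call held in 4 of 24 fits, with adjusted p-values of 0.0125 to 0.1096 by limma. It held without T_355_S43, T_331_S44, D_344_S33 or D_370_S38, and was lost without any 1 of the other tumours. It was also lost without the 5 muscle-rich tumours (-0.30, limma adjusted p = 0.468) and with the muscle covariate (-0.33, limma adjusted p = 0.221).

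Csf2, a factor of granulocytes and macrophages that activated T cells also make (chromosome 11, 54138097 to 54140493), had the fewest reads, 8 to 24 per triple tumour, 6 to 58 per dual tumour and 2 to 19 per vehicle tumour. In CPM it ran from 0.472 to 1.49 in triple tumours, median 0.860, from 0.363 to 3.81 in dual tumours, median 2.08, and from 0.116 to 1.27 in vehicle tumours, median 0.702. The dual tumours fell apart, with 5 above every vehicle tumour and 3 within the vehicle range. The log2 fold change was 1.33 ± 0.47 for dual against vehicle (SE; limma adjusted p = 0.0349). This call was lost when any 1 of C_361_S32, C_364_S28, D_357_S37, D_359_S39, D_367_S35, D_368_S36 or D_373_S40 was left out, with the adjusted p reaching 0.0828 by limma. Triple minus vehicle was 0.48, with an interval of -0.50 to 1.46, and triple minus dual was -0.85, with an interval of -1.83 to 0.13.

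Csf3, the factor that drives neutrophil production (chromosome 11, 98592089 to 98594455), had 0.650 to 10.7 CPM in triple tumours, median 3.80, 4.24 to 26.6 in dual tumours, median 10.8, and 0.116 to 17.3 in vehicle tumours, median 2.51. The vehicle tumours alone spanned 150.0-fold, between 2 reads in C_364_S28 and 260 reads in C_375_S31, and the 3 groups overlapped. All 8 dual tumours lay above the vehicle median, and all 8 triple tumours lay below the dual median. The log2 fold change was 2.18 ± 0.66 for dual against vehicle (SE; limma adjusted p = 0.0141). For triple against vehicle it was 0.54, with an interval of -0.82 to 1.90, and it was -0.022 when C_364_S28 was left out. Triple minus dual was -1.63, with an interval of -2.99 to -0.27 (limma adjusted p = 0.0740), and passed in 1 of 24 fits with a tumour left out, that without C_364_S28 (limma adjusted p = 0.0304).

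Socs3, the feedback inhibitor (chromosome 11, 117856905 to 117860873), had 114 to 306 CPM in triple tumours, median 179, 139 to 225 in dual tumours, median 191, and 79.2 to 142 in vehicle tumours, median 115. In each treated group 6 of 8 tumours lay above the highest vehicle tumour, and T_331_S44 fell just below the vehicle median. Socs3 rose by 0.70 ± 0.17 on the log2 scale for dual (SE; limma adjusted p = 0.00252) and 0.73 ± 0.17 for triple tumours (SE; limma adjusted p = 0.00122), each against vehicle. The call in triple tumours was lost without the muscle-rich tumours, at an adjusted p of 0.0964 by limma. Triple minus dual was 0.02, with an interval of -0.32 to 0.37, and -0.077 under median centring.

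**Figure D3:**
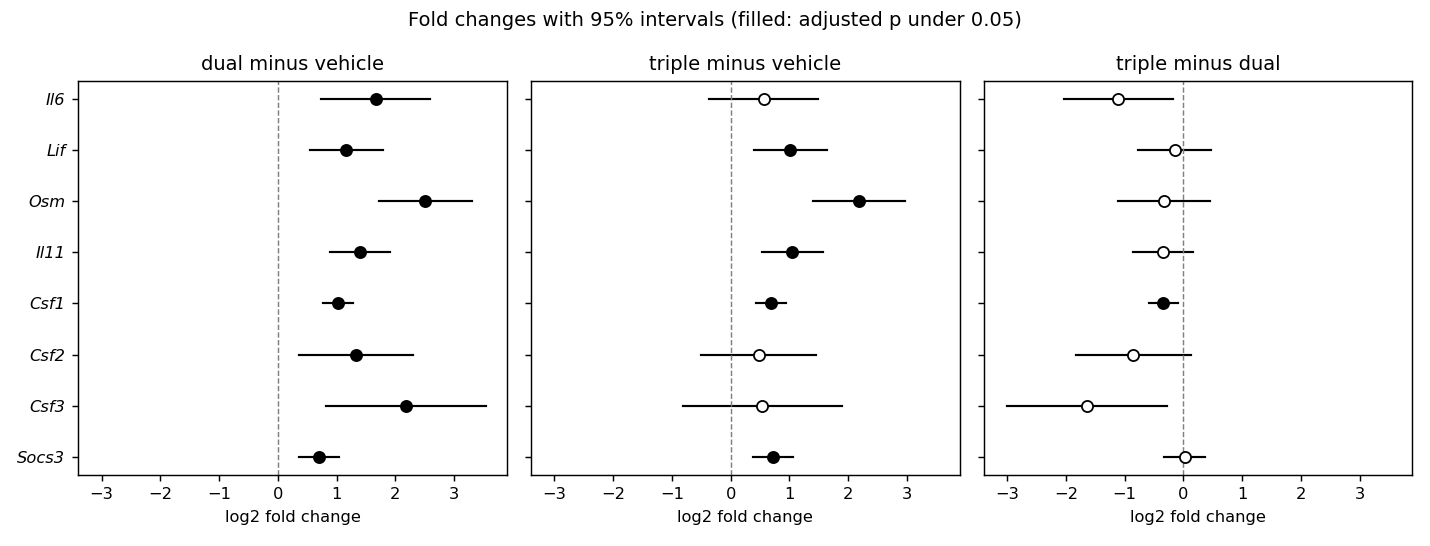
Log2 fold changes of the 8 genes with 95% intervals for dual minus vehicle, triple minus vehicle and triple minus dual, with filled points where the limma adjusted p was under 0.05. All 8 points are filled in dual minus vehicle, 5 in triple minus vehicle and 1, Csf1, in triple minus dual, where the intervals of Il6 and Csf3 also lie below 0.

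The genes varied together among tumours of the same group. Of 28 pairs in each of 3 groups, 81 of 84 Pearson correlations of log2 values were positive. The median r was 0.52 over triple, 0.77 over dual and 0.74 over vehicle tumours. The values share libraries and tumour content, and 8 tumours stand behind each. Pairs of other genes were not computed, so the count is not shown to be particular to these 8 genes. By an exact permutation test adjusted over the 84 relations, 4 pairs in triple, 6 in dual and 6 in vehicle tumours passed, and none passed by Spearman's rho.

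Il6 and Socs3 were related in triple tumours, with r = 0.93 and rho = 0.88 (exact permutation p = 0.00121 and 0.00724, adjusted 0.0321 and 0.0760), and r was 0.82 without the 2 tumours farthest from the median of Il6. Osm and Socs3 passed in all 3 groups, with r = 0.86 in triple, 0.87 in dual and 0.89 in vehicle tumours (exact permutation p = 0.00362, 0.00389 and 0.00419, each adjusted 0.0391). Their rho was 0.90, 0.79 and 0.88 in the same order (exact permutation p = 0.00456, 0.0279 and 0.00724), and r without the farthest 2 tumours was 0.92, 0.59 and 0.92. In dual tumours Csf2 went with Csf3 at r = 0.90 and rho = 0.88 (exact permutation p = 0.00119 and 0.00724, adjusted 0.0321 and 0.0760). In vehicle tumours Il6 went with Lif at r = 0.92 and rho = 0.90 (exact permutation p = 0.00114 and 0.00456, adjusted 0.0321 and 0.0760). The relation of Csf3 to Socs3 in vehicle tumours, r = 0.87, fell to 0.21 without the farthest 2 tumours and so rested on them. Csf1 was the exception in vehicle tumours, where its r with the other 7 genes ran from -0.16 to 0.23.

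**Figure D4:**
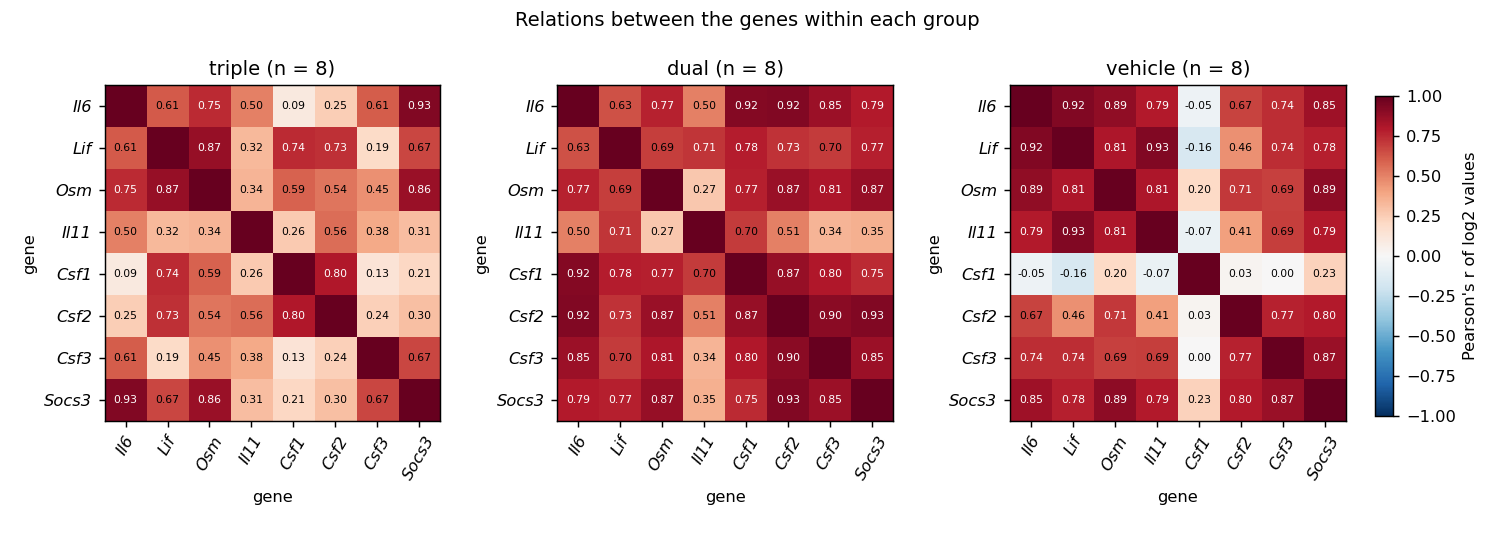
Pearson's r of log2 values for each pair of the 8 genes over the 8 triple, 8 dual and 8 vehicle tumours, on a colour scale from -1 to 1. Dual tumours show values of 0.27 or more for every pair, and the Csf1 row is near 0 in vehicle tumours.

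Single tumours lay at the ends of several genes at once. C_375_S31 was the highest vehicle tumour for 7 of the 8 genes, all but Csf1. C_364_S28 was the lowest vehicle tumour for Il6, Osm, Csf2, Csf3 and Socs3, and T_331_S44 was the lowest triple tumour for Il6, Lif, Osm and Socs3. T_355_S43 was the highest triple tumour for Lif, Osm, Csf1 and Csf2, and T_352_S48 for Il6, Csf3 and Socs3.

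For each gene the 3 most similar genes were those with the highest Pearson r of deviations from the group means over the 24 tumours, among 9215 genes of at least median expression. Il6 was closest to Junb (r = 0.89), an AP-1 subunit, Il33 (0.88), an alarmin cytokine, and Nfkbia (0.85), the inhibitor of NF-kappaB. Socs3 was closest to Zc3h12a (0.93), a nuclease that degrades cytokine mRNAs, Il1b (0.93), a cytokine of activated myeloid cells, and Nfkbia (0.92). Osm was closest to Csrnp1 (0.93), Thbs1 (0.90), which encodes thrombospondin 1, and Il1b (0.88).

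Lif was closest to Dusp5 (0.89), a phosphatase of MAP kinases, Rgs16 (0.88), a regulator of G protein signals, and Plaur (0.81), the urokinase receptor. The nearest genes to Csf3 were Cxcl5 (0.82) and Cxcl1 (0.79), chemokines that attract neutrophils, and Tnfrsf9 (0.77), the costimulatory receptor 4-1BB. Csf2 had Mafk (0.76), Cxcl1 (0.73) and the monocyte chemokine Ccl2 (0.73). Csf1 had Usp36 (0.88), a ubiquitin protease, Bcar3 (0.85) and Zbtb38 (0.82), and Il11 had Klhl2 (0.75), Smim3 (0.71) and Fkbp11 (0.71). Cxcl1 was lower in triple than in dual tumours by a log2 fold change of -1.35 (limma adjusted p = 0.0214) and Ccl2 by -0.64 (limma adjusted p = 0.0119). Tnfrsf9 (-0.71), Fkbp11 (-0.58), Zbtb38 (-0.28) and Mafk (-0.25) were also lower there (limma adjusted p = 0.00595, 0.0125, 0.0483 and 0.0245). Over all genes 9.97% were called lower. All of these calls were lost without the muscle-rich tumours, with Cxcl1 at -1.15 and Ccl2 at -0.62 (limma adjusted p = 0.514 and 0.407). These r values rank genes and carry no test.

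The other ligands of the family moved in their own ways. Ebi3, which pairs with Il27 to form IL-27, had median levels of 11.9 CPM in triple, 6.92 in dual and 5.12 in vehicle tumours. Ebi3 was higher in triple tumours by 0.89 against dual and by 1.40 against vehicle on the log2 scale (limma adjusted p = 0.0183 and 0.000114). Il27 was higher in triple tumours by 1.00 against dual and by 1.37 against vehicle (limma adjusted p = 0.0146 and 0.000284). Without the muscle-rich tumours the calls against vehicle held for Ebi3 (0.72) and Il27 (0.89), while those against dual were lost, at 0.21 for Ebi3 and 0.53 for Il27 (limma adjusted p = 0.812 and 0.601). With the muscle covariate 1 of the 7 other ligands measured was higher in triple than in vehicle tumours. At most 1 of Ebi3, Il27, and Clcf1 and Il12a described next therefore kept its call there. The main fit called 5 of the 7, beside 23.0% of all genes.

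Clcf1, a gp130 ligand, was higher than in vehicle tumours by a log2 fold change of 0.40 in triple and 0.47 in dual tumours (limma adjusted p = 0.0179 and 0.00945). Il12a, the IL-12 p35 chain that can also pair with Ebi3, rose by 1.71 in triple and 2.12 in dual tumours against vehicle (limma adjusted p = 0.0269 and 0.0111), at medians of 0.184, 0.360 and 0.0591 CPM in triple, dual and vehicle tumours. Il12a had 1 to 41 reads per triple tumour, median 3, 3 to 9 per dual tumour and 0 to 4 per vehicle tumour, so these fold changes rest on few reads. Its call in triple tumours was lost without the muscle-rich ones (0.67, limma adjusted p = 0.485). Ctf1, cardiotrophin 1, fell by 1.03 in triple and by 0.78 in dual tumours against vehicle (limma adjusted p = 0.000776 and 0.0114). Cntf had a log2 fold change of -0.37 in triple and -0.10 in dual tumours and passed no test.

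Of 9 IL-6 family receptors, 8 were measured. In triple tumours 4 of the 8 were higher than in vehicle tumours, beside 23.0% of all genes, 2 without the muscle-rich tumours and 1 with the muscle covariate. In dual tumours 1 of 8 was higher, near the 15.0% of all genes, and 1 of 8 was higher in triple than in dual tumours, near the 11.4% of all genes. Osmr, the oncostatin M receptor chain, was the receptor that rose with its ligand in both, by 0.91 in triple and 0.85 in dual tumours on the log2 scale (limma adjusted p = 7.9e-05 and 0.000265). Its median was 89.4 CPM in triple, 90.5 in dual and 54.5 in vehicle tumours. Il6st, the shared chain gp130, was higher by 0.35 in triple tumours (limma adjusted p = 0.0346) and had a log2 fold change of 0.18 in dual tumours, each against vehicle. Il6ra, the IL-6 receptor chain, was higher in triple than in dual tumours by 0.38 (limma adjusted p = 0.0118). Without the muscle-rich tumours the Osmr calls held, while Il6st in triple tumours (0.11, limma adjusted p = 0.532) and Il6ra (0.29, limma adjusted p = 0.407) were not called.

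Lifr, Il11ra1 and Il27ra did not pass any test. Their log2 fold changes in triple against dual tumours were 1.02 for Lifr, 0.79 for Il11ra1 and 0.98 for Il27ra (limma adjusted p = 0.0909, 0.102 and 0.0558). Cntfr and Il31ra were at low levels, with medians of 0.465 and 0.828 CPM in triple tumours, 0.216 and 0.344 in dual tumours and 0.0282 and 0.0895 in vehicle tumours. Both were higher in triple than in vehicle tumours, by 2.94 for Cntfr and 3.11 for Il31ra on the log2 scale (limma adjusted p = 0.00159 and 0.00209). The call of Cntfr held without the muscle-rich tumours (limma adjusted p = 0.0465) and that of Il31ra did not (limma adjusted p = 0.243). With the muscle covariate 1 of the 8 receptors was called higher against vehicle, so Osmr and Cntfr did not both hold there.

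The list of receptors of the colony-stimulating factors holds 5 genes, with Csf2rb2 counted as a copy of Csf2rb. Of these, 4 were higher in triple than in vehicle tumours, Csf2rb2 among them, beside 23.0% of all genes. Without the muscle-rich tumours 1 was higher, and 1 with the muscle covariate. In dual against vehicle tumours 1 was higher and 1 lower, beside 15.0% and 15.8% of all genes, and 3 and 1 in the fit without the muscle-rich triple tumours. In triple against dual tumours 3 were higher, beside 11.4% of all genes, and none without the muscle-rich tumours. Csf3r, the G-CSF receptor of neutrophils, had a median of 86.6 CPM in triple, 68.1 in dual and 20.2 in vehicle tumours. It rose by 2.29 in triple and by 1.81 in dual tumours against vehicle on the log2 scale (limma adjusted p = 9.15e-07 and 2.3e-05). Csf1r, the receptor of Csf1 and Il34 on macrophages, had a median of 226 CPM in triple, 98.4 in dual and 176 in vehicle tumours. It was lower in dual than in vehicle tumours by a log2 fold change of -0.79 (limma adjusted p = 0.0242) and higher in triple than in dual tumours by 1.16 (limma adjusted p = 0.00750). The difference from dual tumours was not called without the muscle-rich tumours, at 0.39 (limma adjusted p = 0.560).

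Csf2ra, the GM-CSF receptor alpha chain, was higher in triple tumours by 0.80 against vehicle and by 1.07 against dual (limma adjusted p = 0.0155 and 0.00986). Csf2rb, the shared beta chain, was higher in triple tumours by 1.22 against vehicle and 0.73 against dual (limma adjusted p = 0.000526 and 0.0450). Csf2rb2, a near-identical mouse copy of Csf2rb whose reads may be split with it, was higher by 1.31 in triple against vehicle tumours (limma adjusted p = 0.000398). Without the muscle-rich tumours none of these calls on Csf2ra, Csf2rb and Csf2rb2 held. The differences from vehicle were then 0.09, 0.50 and 0.60, and those of Csf2ra and Csf2rb from dual tumours 0.36 and 0.01. Il34, the other ligand of Csf1r, was lower than in vehicle tumours by a log2 fold change of -0.85 in triple and -0.89 in dual tumours (limma adjusted p = 8.8e-06 and 1.1e-05). The macrophage marker share, which counts Csf1r among its 10 genes, was 0.116% to 0.583% in triple, 0.120% to 0.170% in dual and 0.145% to 0.212% in vehicle tumours. Its part in the receptor values was not tested.

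**Figure D5:**
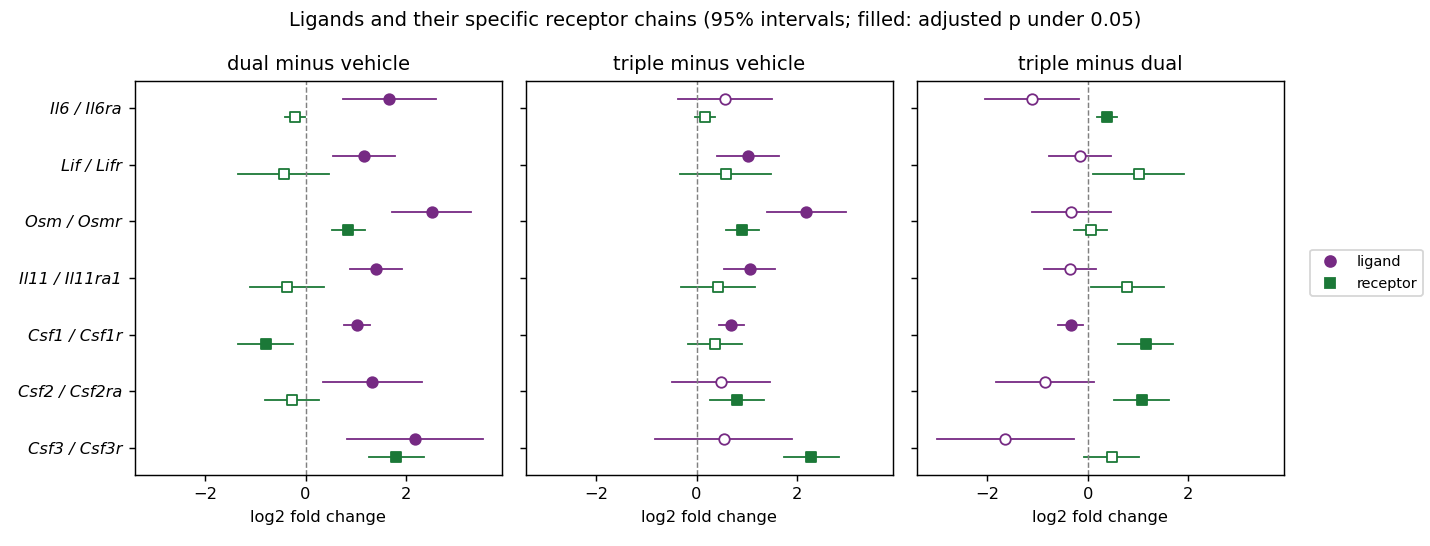
Log2 fold changes with 95% intervals of 7 ligands (circles) and their specific receptor chains (squares) in the 3 comparisons, filled where the limma adjusted p was under 0.05. In dual minus vehicle all 7 ligands are filled and of the receptors Osmr, Csf1r and Csf3r. In triple minus dual the ligand points lie below 0 and the receptor points above it, but only Csf1, Il6ra, Csf1r and Csf2ra are filled. The intervals of Lif, Osm, Il11, Csf2, Osmr and Csf3r there cross 0. Without the muscle-rich triple tumours none was called, and median log2 fold changes were -0.06 over the IL-6 family receptors and 0.02 over the colony-stimulating factor receptors.

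Downstream, 1 of 7 JAK-STAT signalling genes was higher and 1 lower in dual than in vehicle tumours, near the 15.0% and 15.8% of all genes. In triple tumours 5 of 7 were higher than in vehicle tumours, beside 23.0% of all genes, and 3 were higher and 1 lower without the muscle-rich tumours. With the muscle covariate 2 were higher and none lower. Stat3, the transcription factor of the family, rose by 0.57 in triple and 0.42 in dual tumours against vehicle on the log2 scale (limma adjusted p = 5.5e-05 and 0.00172). Of 24 STAT3 target genes, 21 were higher in triple and 19 in dual than in vehicle tumours, beside 23.0% and 15.0% of all genes, and none was lower. This list, like the others, was chosen with earlier results of these data known, and Cd14 in it is also a macrophage marker here. The counts describe these genes and are not an independent test. In triple tumours 13 of the 24 targets were higher without the muscle-rich ones, and 12 with the muscle covariate. Their median log2 fold change was 1.06 in triple and 0.86 in dual tumours. Between triple and dual tumours 3 of the 24 were higher and 2 lower, near the 11.4% and 9.97% of all genes. The 5 with the smallest p in triple against vehicle tumours were Pim1, Lcn2, Saa3, Bcl2l1 and Il1rn. Lcn2, the siderophore-binding protein lipocalin 2 that neutrophils also carry, had log2 fold changes of 4.03 in triple and 4.27 in dual tumours. Saa3, an acute phase protein, had 3.72 and 3.18, Il1rn, the IL-1 receptor antagonist, 2.81 and 2.66, and the kinase Pim1 1.78 and 1.36, in the same order. Bcl2l1, which encodes the survival protein BCL-XL, had 0.86 in triple and 0.91 in dual tumours. These 5 were picked by their p in triple tumours, so their passing there was fixed by the choice. All 5 also passed in dual tumours, against the same vehicle tumours, with limma adjusted p-values of at most 0.000169.

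Of 11 other inhibitors of the pathway, 4 were higher and 3 lower in triple than in vehicle tumours, beside 23.0% and 22.8% of all genes, and 1 was higher and 3 lower without the muscle-rich tumours. With the muscle covariate 1 was higher and 2 lower. In dual against vehicle tumours 1 was higher and 1 lower, under the 15.0% and 15.8% of all genes. Ptpn6, the phosphatase SHP-1 of blood cells, was higher in triple tumours by 1.07 against vehicle and 1.06 against dual on the log2 scale (limma adjusted p = 0.000483 and 0.00572). Socs1 was higher by 0.52 and Cish by 0.83 in triple against vehicle tumours (limma adjusted p = 0.0143 and 0.0392). Without the muscle-rich tumours Ptpn6 (0.53 against vehicle and 0.52 against dual), Socs1 (0.38) and Cish (0.12) were not called. Ptpn11, the phosphatase SHP-2, was higher by 0.21 in triple and 0.32 in dual tumours against vehicle (limma adjusted p = 0.00404 and 0.000151). Pias3, which inhibits STAT3, fell by 0.65 in triple and by 0.67 in dual tumours against vehicle (limma adjusted p = 0.000366 and 0.000428).

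Socs6 was lower in triple tumours, by a log2 fold change of -0.59 against vehicle and -0.45 against dual (limma adjusted p = 2.5e-05 and 0.00534). The log2 fold change was -0.23 for Socs4 in triple against vehicle tumours, and -0.21 for Socs5 and 0.27 for Pias1 in triple against dual tumours (limma adjusted p = 0.00367, 0.0449 and 0.0113). Without the muscle-rich tumours the calls of Socs6 and Socs4 against vehicle held, and those of Socs6, Socs5 and Pias1 against dual were lost (limma adjusted p = 0.407, 0.691 and 0.407). Socs2 and Socs7 did not pass any test, with log2 fold changes in triple against vehicle tumours of 0.28 and -0.17. Among Socs3 and these 11 inhibitors, Socs3 and Ptpn11 were called higher in both treated groups, and without the muscle-rich tumours only Ptpn11 was.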

How the data were processed

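Per the submitters' processing notes, the authors used STAR 2.7.9a as well as FastQC 0.11.8, limma, edgeR and featureCounts 1.6.0, and the mouse build GRCm39; settings are not given in the sources used here. Libraries were stranded and poly(A)-selected, per the labels' protocols. The deposited table holds log2 values, which in each tumour fitted log2 of CPM from reads plus 0.5 over a library size after scaling, and whole reads could be recovered for 100% of values within 0.01 reads. CPM here is 2 to the deposited log2 value. Groups were taken from the labels. Mouse numbers differ between all tumours, and nothing else in the labels says that these are separate animals; p-values measure the spread between these tumours.

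Differences were tested in R 4.3.3 with limma 3.58.1 (variance trend, a mean for each group, 24 tumours in the fit) on the log2 values as deposited. P-values were adjusted over 18723 genes by Benjamini-Hochberg, and genes were called under 0.05. The test was also run on simulated data. Relations used Pearson's r and Spearman's rho with two-sided exact permutation tests (scipy 1.17.1). Exon lengths came from GENCODE M21 on GRCm38 and only scale levels. The members and gene lists were chosen with earlier results of these data known. Named genes were all members, ligands, receptors and inhibitors measured, apart from 1 ligand-list gene that is not reported here, the 5 STAT3 targets with the smallest p in triple against vehicle tumours and the 3 genes most like each member. Alternatives were variance without the trend or with a robust prior, tumour weights, fits restricted to 2 groups, removal of genes under the 25th percentile, quantile normalization, median centring, log2(CPM + 1), precision weights, median-of-ratios scaling, a skeletal muscle covariate, fits without muscle-rich triple tumours, an exact Wilcoxon test, a threshold of 0.01 and leaving out each tumour in turn. The fits without muscle-rich tumours and with the muscle covariate were extended to the pathway genes after seeing the data.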

Additional observations from a re-analysis of the deposited data

Results flagged for a closer look

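2 values stood apart from their group by Dixon's test, in which the gap to the nearest tumour is divided by the range of the 8 and set against the 95% critical value. Il11 in D_370_S38, the lowest dual tumour, had a log2 value of 2.255 with a gap over range of 0.549. Csf1 in T_355_S43, the highest triple tumour, had a log2 value of 9.165 with a gap over range of 0.535. Chance flags about 1 in 20 groups, and 24 groups were looked at (8 genes in 3 groups).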

How the results depend on the processing

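All 8 genes were called higher in dual than in vehicle tumours under each setting tried, with these exceptions: the exact Wilcoxon test called 7, a threshold of 0.01 called 6, and leaving out 1 tumour called 7 to 8. In triple against vehicle tumours the count of 5 became 3 with the skeletal muscle covariate and 3 without the muscle-rich triple tumours. Lif (adjusted p = 0.104 and 0.155, limma) and Socs3 (0.0641 and 0.0964) were lost in these fits. The count was 5 with each tumour left out. Between triple and dual tumours the count of 1 became 0 with robust variance, no variance trend, median-of-ratios scaling, the muscle covariate, without the muscle-rich tumours, with the exact Wilcoxon test and at 0.01. The 1 gene called was Csf3 in fits on 2 groups alone and with precision weights. The count was 2 with median centring (Csf1 and Il6), with log2(CPM + 1) (Csf1 and Csf3) and with quantile normalization (Il6 and Csf3, while Csf1 had an adjusted p of 0.0696 by limma), 3 with tumour weights (Csf1, Il6 and Csf3), and 0 to 1 with 1 tumour left out. The causes were not tested.

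Signs turned for 3 genes in comparisons that they did not pass. The log2 fold change of Il6 in triple against vehicle tumours was -0.040 without the muscle-rich tumours. That of Csf3 was -0.084 with tumour weights and -0.022 to 0.96 with 1 tumour left out, the lowest without C_364_S28. Socs3 in triple against dual tumours was -0.16 with tumour weights, -0.077 with median centring, -0.10 with the muscle covariate and -0.33 without the muscle-rich tumours, and between -0.080 and 0.12 with 1 tumour left out.

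Over all genes, 2140 were called higher and 1867 lower in triple than in dual tumours, which became 1724 and 2976 with median centring, 1792 and 2414 with quantile normalization, 806 and 568 on 2 groups alone, 789 in all by the exact Wilcoxon test, 440 and 330 at 0.01, 6 and 2 with the muscle covariate and 2 and 0 without the muscle-rich tumours. With 1 tumour left out these ran from 1311 to 3598 and from 1081 to 3075, both highest without T_331_S44. In dual against vehicle tumours 2803 and 2957 became 4436 and 4775 with tumour weights and 1769 and 1685 at 0.01. In triple against vehicle tumours 4297 and 4263 became 1963 and 1952 with the muscle covariate, 2853 and 2848 without the muscle-rich tumours and 2962 and 2807 at 0.01. The median of all genes moved by -0.10 in triple against dual tumours under median centring and by -0.09 in triple against vehicle tumours under quantile normalization. No paired analysis was possible because each mouse number occurs once. Depth limits Csf2, which had at most 58 reads in a tumour.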

Other observations

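The macrophage and skeletal muscle marker shares were set against the 8 genes within each group. Against the macrophage share, r was positive for 5 of 8 genes in triple, 5 of 8 in dual and 1 of 8 in vehicle tumours, with medians of 0.21, 0.10 and -0.56. Against the muscle share it was positive for 5 of 8 genes in triple, 7 of 8 in dual and 1 of 8 in vehicle tumours, with medians of 0.24, 0.16 and -0.57. Against the neutrophil share r was positive for all 8 genes in each group, with medians of 0.65, 0.31 and 0.60. No single relation passed adjustment over the 72.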
